A study of Mus musculus with 14 samples.

Results

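Ccl3, Ccl4, Cxcl1, Cxcl2 and Cxcl16 encode 5 chemokines, the small secreted proteins that direct the movement of leukocytes. They were taken by symbol from the annotation of an Illumina mouse array, where all their probes, 8 of 45281, and thus 5 of 19057 named genes, were followed in myeloid cells of breast cancer brain metastases (BrM). Ccl4, Cxcl2 and Cxcl16 had 2 probes each, Ccl3 and Cxcl1 had 1 each, and the probe with the highest mean over all arrays stands for a gene unless the other is named. All 5 genes were higher in cells from BrM than in cells from spleen and bone marrow, by 3.25 to 4.77 on the log2 scale, and on each of the 8 probes every BrM array lay above every spleen and bone marrow array.

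The samples were GFP+CD11b+ cells of 14-week-old C57Bl/6J mice, sorted by flow cytometry and hybridized on 14 arrays. The tumors grew from PyMT or EO771 cells, both of murine breast cancer origin, in chimeric mice whose marrow had been replaced after irradiation by donor marrow with GFP under the ubiquitin C promoter. There were 4 PyMT BrM samples, 3 PyMT spleens, 1 PyMT bone marrow and 2 EO771 BrM samples, all taken about 2 weeks after intracranial injection of cancer cells, along with 2 naïve spleens and 2 naïve bone marrow samples of mice without tumors. The naïve organs stood in for those of EO771-bearing mice, so the EO771 controls came from mice without tumors. GFP marked cells of the graft, and whether the naïve mice were also chimeras is not stated in the sources used here. The title of EO771 BrM 2 carried a pair of mouse codes, so that sample may be a pool, both naïve bone marrow arrays and naïve spleen 1 share a code and may come from 1 animal, and PyMT bone marrow 1 shares its code with PyMT BrM 3 and PyMT spleen 1.

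The values were quantile normalized signals on a log scale, whose base was taken as 2 from their range, with a median of 4.06 on the arrays. Between BrM and the controls, 4.89% of all named genes were higher in BrM and 4.13% lower at an adjusted p under 0.01 by limma. Of the sort marker genes 0 of 4 passed, which is near that share, with a median difference of -0.27. Of 17 neutrophil genes 16 were lower in BrM, and of 16 macrophage genes 9 were higher. In bulk RNA fewer cells of a type and less RNA per cell cannot be told apart. The sources do not say that the replicates of a group were separate animals in every case, and p-values measure the spread between these samples.

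Chemokines are grouped by the spacing of their first cysteines. CCL3 and CCL4, once named macrophage inflammatory proteins, draw monocytes, macrophages and lymphocytes. CXCL1 and CXCL2 act on CXCR2 and draw neutrophils. CXCL16 is made as a membrane protein with a chemokine domain on a stalk, binds CXCR6 on T cells and takes up oxidized lipoproteins, and is released when the proteases ADAM10 or ADAM17 cut the stalk. In macrophages, toll-like receptors and NF-kappaB induce Ccl3, Ccl4, Cxcl1 and Cxcl2 within a short time, and their mRNAs are short-lived because proteins such as ZFP36 mark them for decay.

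The promoters of Cxcl1, Cxcl2 and Ccl3 are shown so that runs shared between their start regions can be read. Each runs 5′ to 3′ over 300 bases of the RefSeq annotation of GRCm38.p6, with 250 bases before the annotated first base and 50 bases from it on. Capitals mark matches to the NF-kappaB consensus on either strand, where matches on both strands overlap. Promoters of 3 of the 5 genes were in the table used, and Ccl4 and Cxcl16 were not.
Cxcl1 (chr5:90890995-90891294, plus strand): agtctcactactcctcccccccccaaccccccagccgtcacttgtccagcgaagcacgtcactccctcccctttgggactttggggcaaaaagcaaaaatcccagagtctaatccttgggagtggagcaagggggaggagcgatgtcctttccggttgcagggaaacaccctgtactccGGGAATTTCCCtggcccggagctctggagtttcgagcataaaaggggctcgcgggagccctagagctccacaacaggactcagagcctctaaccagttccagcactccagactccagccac
Cxcl2 (chr5:90903649-90903948, plus strand): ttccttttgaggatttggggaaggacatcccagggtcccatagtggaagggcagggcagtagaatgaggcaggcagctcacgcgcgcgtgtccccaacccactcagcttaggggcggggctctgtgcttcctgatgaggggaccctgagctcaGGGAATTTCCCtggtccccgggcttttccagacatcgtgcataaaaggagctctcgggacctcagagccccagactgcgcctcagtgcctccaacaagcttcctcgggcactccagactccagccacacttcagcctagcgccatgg
Ccl3 (chr11:83649329-83649628, minus strand): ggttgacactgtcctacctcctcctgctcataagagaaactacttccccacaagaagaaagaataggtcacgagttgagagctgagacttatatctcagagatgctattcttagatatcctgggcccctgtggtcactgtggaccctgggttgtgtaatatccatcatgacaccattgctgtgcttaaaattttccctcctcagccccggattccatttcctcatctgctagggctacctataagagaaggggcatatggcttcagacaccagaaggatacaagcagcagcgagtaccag

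The same letters, GGGAATTTCC, stood in the Cxcl1 promoter at positions -71 to -62 and in the Cxcl2 promoter at -97 to -88, where 0 is the first transcribed base. This exact run was itself read from the promoters shown, so its share cannot say how unusual the match between them is. It occurred on either strand in 29 of 32851 promoters of the same length (0.0883%), and the wider NF-kappaB consensus in 4.51%. The run ATAAAAGG, searched after the sequences were read and present in 1.76% of promoters, followed in both, at -34 to -27 in Cxcl1 and at -57 to -50 in Cxcl2. Neither run was found in the Ccl3 window, nor was the consensus, and TATAAA (in 13.6% of promoters), the AP-1 motif TGANTCA (7.81%) and the C/EBP motif TTGCNNAA (10.8%) matched none of the 3 windows. These matches describe letters in a window and do not show that a factor was bound. Aligned on the first base without gaps, Cxcl1 and Cxcl2 shared 72 of 300 bases, and with Ccl3 they shared 76 and 75. This count cannot say how far Cxcl1 and Cxcl2 are alike, because it misses their shared runs, which lie at different distances from the start. The longest, GCACTCCAGACTCCAGCCAC, lay after the start in both. No other protein-coding gene lies between Cxcl1 and Cxcl2 on chromosome 5 or between Ccl3 and Ccl4 on chromosome 11, and the annotated spans of Ccl3 and Ccl4 overlap there.

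Ccl3, a ligand of CCR1, had log2 signals of 11.80, 10.04, 10.46 and 9.88 in PyMT BrM 1 to 4 and of 12.63 and 12.10 in EO771 BrM 1 and 2. In PyMT spleens it read 7.56, 6.26 and 5.93, in naïve spleens 5.84 and 6.11, in PyMT bone marrow 6.14 and in naïve bone marrow 7.82 and 7.75. The lowest BrM array lay 2.05 above the highest control array. Across the controls Ccl3 was at its highest in naïve bone marrow and in PyMT spleen 1, and the other controls lay close together.

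Ccl4, the neighbor of Ccl3, read 12.87, 11.57, 11.83 and 11.32 in PyMT BrM 1 to 4 and 14.03 and 13.55 in EO771 BrM. Its signals were 10.62, 8.73 and 8.83 in PyMT spleens, 8.71 and 9.38 in naïve spleens, 8.78 in PyMT bone marrow and 9.47 and 9.68 in naïve bone marrow. The gap between the lowest BrM and the highest control array was 0.70, the smallest of the 5 genes, and PyMT spleen 1 set it. The second Ccl4 probe was dimmer by 2.63 (SD 0.33 over 14 arrays) and ran in parallel, from 8.22 to 11.83 in BrM and from 6.00 to 7.48 in the controls.

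Cxcl1, a ligand of CXCR2, had signals of 9.03, 6.04, 5.15 and 5.60 in PyMT BrM 1 to 4 and of 8.84 and 7.99 in EO771 BrM. The controls read 3.52, 3.89 and 3.45 in PyMT spleens, 0.57 and 2.90 in naïve spleens, 3.89 in PyMT bone marrow and 2.58 and 3.61 in naïve bone marrow. All 8 control values were below the median signal of the arrays, from the 0.5 to the 44.2 percentile of probes. A fold change of Cxcl1 rests on a denominator near the background of the array.

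Cxcl2, the other CXCR2 ligand, read 10.77, 8.18, 7.87 and 7.69 in PyMT BrM 1 to 4 and 12.11 and 10.64 in EO771 BrM. Signals were 5.58, 5.40 and 4.79 in PyMT spleens, 4.20 and 5.42 in naïve spleens, 4.44 in PyMT bone marrow and 6.08 on both naïve bone marrow arrays. Every BrM array was above every control by at least 1.61. The other Cxcl2 probe was about as bright but less parallel, with gaps between -1.47 and 0.92 on the same array, and it read 7.73 to 11.52 in BrM and 3.57 to 6.26 in the controls.

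Cxcl16, the membrane-bound ligand of CXCR6, read 12.42, 12.42, 12.69 and 12.34 in PyMT BrM 1 to 4 and 11.30 and 12.03 in EO771 BrM, a range of 1.39 over the 6 arrays, against ranges of 2.71 to 4.42 for the other 4 genes. In PyMT spleens the signals were 8.84, 6.07 and 8.34, in naïve spleens 8.20 and 7.98, in PyMT bone marrow 6.97 and in naïve bone marrow 6.50 and 6.57. The lowest BrM array lay 2.46 above the highest control, the widest gap of the 5 genes. The second Cxcl16 probe, dimmer by 3.17 (SD 0.47), read 8.06 to 9.35 in BrM and 3.67 to 5.57 in the controls.

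**Figure D1:**
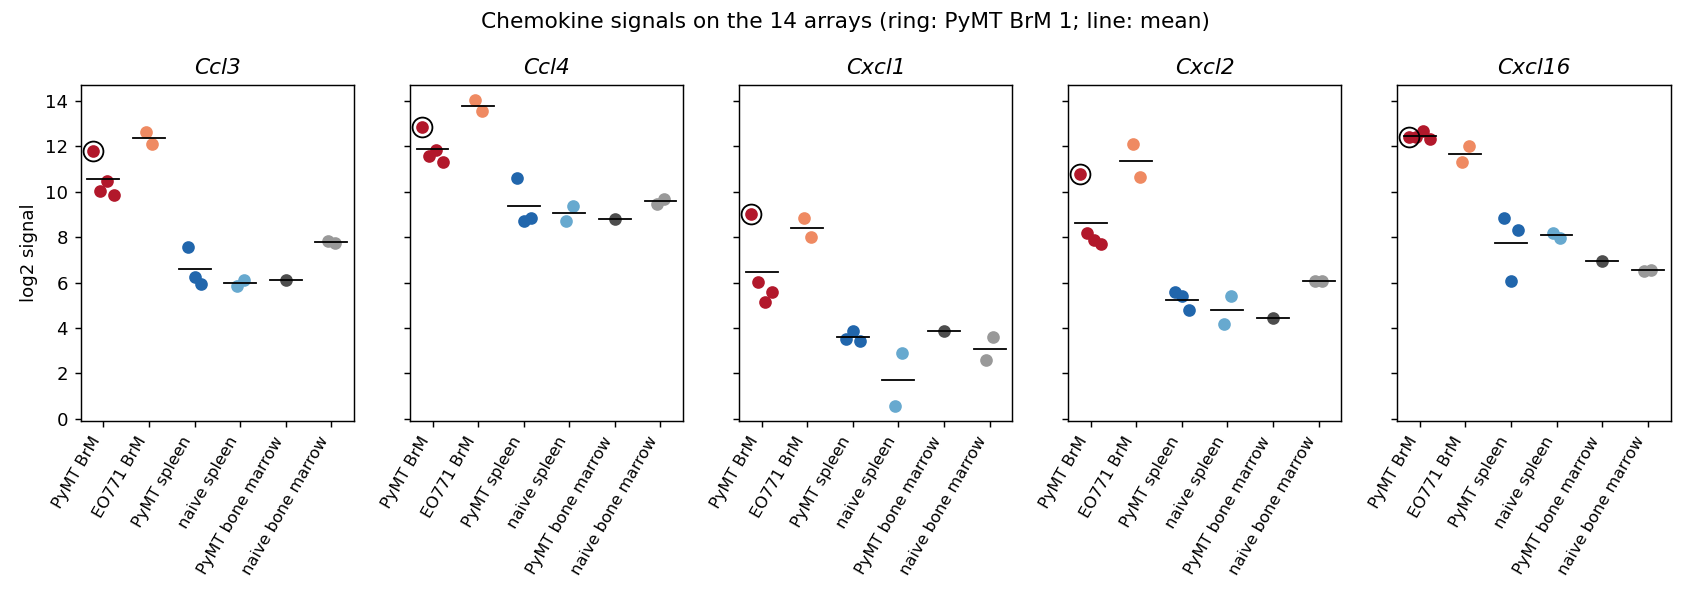
Log2 signal of the brightest probe of each chemokine (vertical axis) on the 14 arrays in 6 conditions (horizontal axis), with each point an array, each line a mean and a ring around PyMT BrM 1. All 6 BrM arrays sit above all 8 spleen and bone marrow arrays in each panel, and the ringed array sits with EO771 BrM for Cxcl1 and Cxcl2 but with the other PyMT BrM arrays for Cxcl16.

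The arrays were compared to find genes that distinguish myeloid cells of BrM from those of spleen and bone marrow. In the pooled comparison of 6 BrM against 8 control arrays, all 5 genes and all 8 probes were higher in BrM at an adjusted p under 0.01 (limma, two-sided, Benjamini-Hochberg over all probes), where 3.8% of all probes were called higher. Likewise 3.26% of all probes had every BrM array above every control array. Cxcl16 was 27.3-fold higher (log2 difference 4.77, SE 0.41, adjusted p = 1.13e-06 by limma), from mean (SD) = 7.43 (1.03) in the controls to 12.20 (0.49) in BrM. Ccl3 was 22.2-fold higher (4.48, SE 0.48), from 6.68 (0.87) to 11.15 (1.17). Cxcl2 was 19.6-fold higher (4.29, SE 0.63), Cxcl1 16.6-fold (4.06, SE 0.66) and Ccl4 9.54-fold (3.25, SE 0.43), with adjusted p from 1.32e-05 to 5.42e-04 over Ccl3 and these 3 genes by limma. Among 19057 named genes ordered from the largest rise, Cxcl16 stood at place 22, Ccl3 at 28, Cxcl2 at 32, Cxcl1 at 47 and Ccl4 at 83. The second probes gave 3.23 for Ccl4, 4.12 for Cxcl2 and 4.23 for Cxcl16.

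Within the PyMT model, 4 PyMT BrM arrays were set against 3 spleens and 1 bone marrow of PyMT mice. Of the 5 genes 4 were higher, where 2.92% of all probes were called higher. Cxcl16 rose 30.2-fold (4.92, SE 0.54), Ccl3 16.8-fold (4.07, SE 0.54), Cxcl2 11.9-fold (3.57, SE 0.63) and Ccl4 6.31-fold (2.66, SE 0.43). Cxcl1 did not pass, with a log2 difference of 2.77 (SE 0.75, 95% interval 1.16 to 4.37, adjusted p = 0.0297 by limma). Its 4 BrM arrays were all above its 4 controls, a pattern whose share over all probes was not computed. Of these arrays, 3 pairs of BrM and spleen share a code in their titles, and with that code as a fixed block 1 of the 5 genes was called, in a fit that called 0.152% of all probes higher. That gene was Ccl3 (3.54, adjusted p = 0.00977 by limma), with BrM above its own spleen by 2.90, 3.78 and 3.95. In the same fit of 6 arrays the difference was 4.74 for Cxcl16 (adjusted p = 0.0139), 2.66 for Cxcl2 (0.0183), 1.97 for Cxcl1 (0.0397) and 2.18 for Ccl4 (0.0575) by limma. BrM read above its own spleen in every pair for each gene, but how many of all probes did so was not counted.

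Within the EO771 model, 2 EO771 BrM arrays were set against 4 naïve spleen and bone marrow arrays. All 5 genes were higher, where 1.98% of all probes were. The difference was 6.00 for Cxcl1 (SE 0.92) and 5.93 for Cxcl2 (SE 0.78), followed by Ccl3 (5.49, SE 0.66), Ccl4 (4.48, SE 0.53) and Cxcl16 (4.35, SE 0.67), with adjusted p from 1.38e-04 to 0.00109 by limma. The 6.00 for Cxcl1 includes naïve spleen 1, the lowest array of that probe, and was 5.38 without that array, when Cxcl2 was at 5.52. With EO771 BrM 1 left out, which leaves a single EO771 BrM array, 2 genes were called, Ccl3 and Ccl4, and Cxcl1, Cxcl2 and Cxcl16 were at 5.58, 5.19 and 4.72. With EO771 BrM 2 left out 3 were called, Ccl3, Ccl4 and Cxcl2, and Cxcl1 and Cxcl16 were at 6.42 and 3.99.

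Set against each control tissue on its own, the 6 BrM arrays were higher than the 5 spleens in 5 of 5 genes, where 2.57% of all probes were called higher, and higher than the 3 bone marrow arrays in 4 of 5, where 3.24% were. Cxcl16 differed by 4.32 (SE 0.40) from spleen and by 5.52 (SE 0.47) from bone marrow, and Ccl3 by 4.81 (SE 0.53) and 3.91 (SE 0.61). Ccl4 differed by 3.28 (SE 0.49) from spleen and 3.22 (SE 0.58) from bone marrow, and Cxcl2 by 4.47 (SE 0.72) and 4.01 (SE 0.84). Cxcl1 was higher than in spleen by 4.24 (SE 0.75) and differed from bone marrow by 3.74 (SE 0.88, adjusted p = 0.0102 by limma). Without PyMT bone marrow 1, 2 genes passed, Ccl3 (3.36) and Cxcl16 (5.67), while the differences of the others were 2.96 for Ccl4, 3.46 for Cxcl2 and 4.01 for Cxcl1. PyMT BrM against PyMT spleen alone called 4 of the 5, where 2.72% of all probes were called higher, with Cxcl1 at 2.83 (adjusted p = 0.0448 by limma). Without the naïve bone marrow arrays, which leaves a single bone marrow array, Cxcl16 alone passed (5.24). The difference was then 5.01 for Ccl3, 3.74 for Ccl4, 5.10 for Cxcl2 and 3.22 for Cxcl1.

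**Figure D2:**
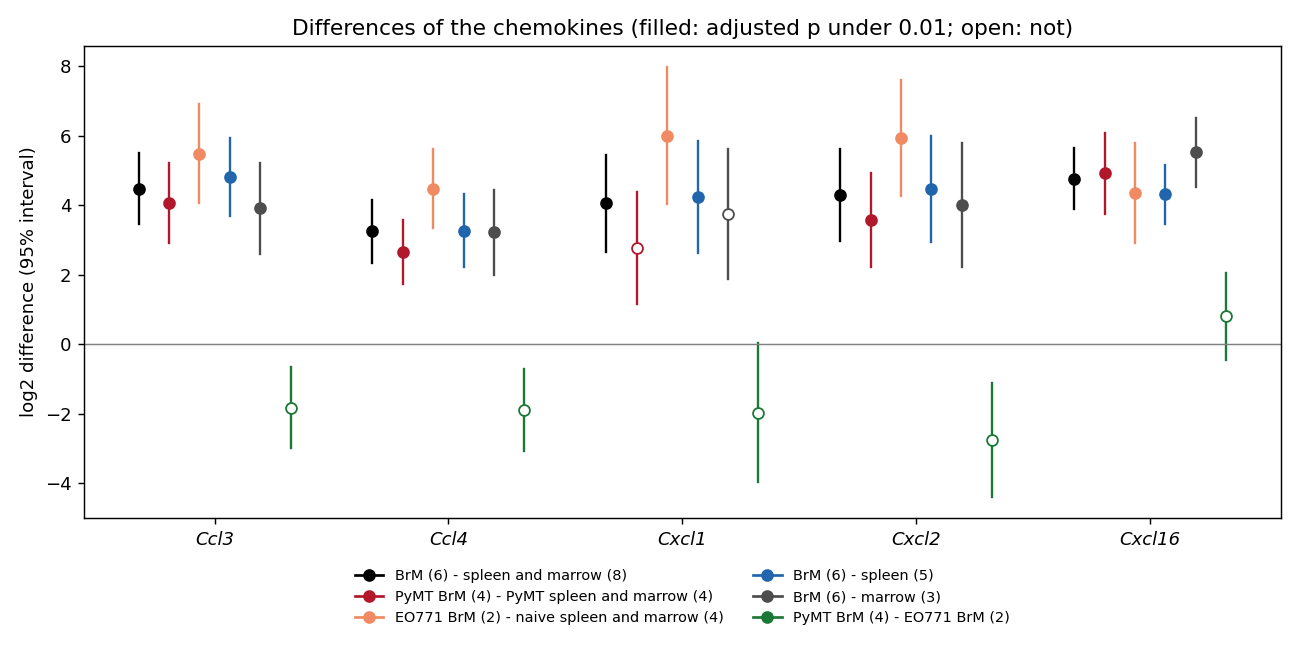
Log2 differences (points) and their 95% intervals (lines) of the 5 chemokines in 6 comparisons, with the number of arrays on each side in the legend. The 5 comparisons of BrM with controls lie above 0 for every gene, whereas PyMT BrM minus EO771 BrM lies below 0 for Ccl3, Ccl4, Cxcl1 and Cxcl2 and above 0 for Cxcl16, with open points throughout.

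The order of the 6 conditions separated Cxcl16 from the other 4 genes. Ccl3, Ccl4, Cxcl1 and Cxcl2 had their highest mean in EO771 BrM, followed by PyMT BrM and then the controls. Cxcl16 had its highest mean in PyMT BrM (mean [SD] = 12.47 [0.15]), followed by EO771 BrM (11.67 [0.51]). In the direct comparison, however, 0 of the 5 genes passed between PyMT BrM and EO771 BrM, where 1% of all probes were called lower and 0.583% higher in PyMT BrM by limma, and 3 of the 5 were lower at an unadjusted p under 0.05, as were 9.57% of probes. The differences of PyMT BrM from EO771 BrM were -1.83 for Ccl3 (95% interval -2.99 to -0.66, adjusted p = 0.0675), -1.89 for Ccl4 (-3.06 to -0.72, 0.0600) and -2.75 for Cxcl2 (-4.39 to -1.11, 0.0532) by limma. They were -1.96 for Cxcl1 (-3.98 to 0.05, adjusted p = 0.259) and 0.80 for Cxcl16 (-0.45 to 2.06, 0.491) by limma. Both EO771 BrM arrays were above every PyMT BrM array for Ccl3 and Ccl4, a pattern that 17.2% of all probes had, and overlapped with PyMT BrM 1 for Cxcl1 and Cxcl2.

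Lower down the order, no step between neighboring control conditions passed the test in any of the 5 genes, with adjusted p from 0.227 to 0.974 by limma. The step from PyMT BrM to the next condition, naïve bone marrow, was 2.76 for Ccl3 (adjusted p = 0.00424 by limma, where 4.38% of all probes were called higher), 2.32 for Ccl4 (0.0112) and 2.55 for Cxcl2 (0.0367). For Cxcl1 the next condition was PyMT bone marrow, 2.56 lower with a single array (adjusted p = 0.293 by limma). For Cxcl16 the step from EO771 BrM to naïve spleen was 3.57 (adjusted p = 0.00856 by limma, where 1.26% of all probes were called higher).

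The test of whether the 2 models differed in their change against their own controls called 0 of the 5 genes (0.0398% of all probes were called higher and 0.0905% lower by limma, and 3 of the 5 were lower at an unadjusted p under 0.05, as were 4.46% of probes). The PyMT minus EO771 difference of changes was -3.24 for Cxcl1 (95% interval -5.78 to -0.69), -2.36 for Cxcl2 (-4.51 to -0.20), -1.82 for Ccl4 (-3.29 to -0.36), -1.42 for Ccl3 (-3.24 to 0.41) and 0.56 for Cxcl16 (-1.28 to 2.41). The adjusted p ran from 0.405 to 0.910 by limma.

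PyMT BrM 1 stood apart within its own group. Its Cxcl1 signal of 9.03 was above both EO771 BrM arrays and its Cxcl2 signal of 10.77 lay between them, while PyMT BrM 2 to 4 read 5.15 to 6.04 for Cxcl1 and 7.69 to 8.18 for Cxcl2. Its Ccl3 and Ccl4 signals, 11.80 and 12.87, were also the highest of the group, and its Cxcl16 signal was not. Without PyMT BrM 1 the pooled comparison still called all 5 genes, and the PyMT comparison still called the 4, with Cxcl1 at 1.91 (adjusted p = 0.0544 by limma). In the comparison of PyMT BrM with EO771 BrM without it, Cxcl2 was called lower in PyMT BrM (-3.46, adjusted p = 0.0038 by limma), while Ccl3 (-2.24, 0.0158), Cxcl1 (-2.82, 0.0244) and Ccl4 (-2.22, 0.0313) did not pass. PyMT BrM 1 was set apart by its signals of these same genes, so the Cxcl2 call is no separate evidence of a difference. The share of all probes called without that array is not given here. With all arrays the other Cxcl2 probe differed by -1.93 (adjusted p = 0.181 by limma).

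Genes that tissue dissociation is known to induce were measured beside the chemokines, since enzymatic release of cells can switch on early-response genes. Of 26 such genes, 10 were higher and 1 was lower in BrM, where 4.89% of all named genes were called higher and 4.13% lower. Their median difference was 0.80 against -0.01 over all genes. Fosb, a subunit of the AP-1 factor, differed by 4.62 (adjusted p = 1.12e-05) and Hspa1a, an inducible heat shock protein, by 3.72 (adjusted p = 3.39e-04), whereas Klf2, a transcription factor of quiescent cells, differed by -1.94 (adjusted p = 0.00702 by limma). The mean signal of the list was 8.97 in PyMT BrM 1, 7.57 to 7.87 in PyMT BrM 2 to 4, 8.39 and 8.68 in EO771 BrM and 6.52 to 7.37 in the controls. It was thus highest on PyMT BrM 1 and the EO771 BrM arrays, which also had the highest Ccl3, Ccl4, Cxcl1 and Cxcl2. The part of dissociation in these differences was not tested.

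Beside the counts that follow, 4.89% of all named genes were called higher in BrM and 4.13% lower. Of 17 neutrophil genes 16 were lower, led by Ngp (-7.78) and Camp (-7.46), both of neutrophil granules. The mean of the 17 was 6.36 in PyMT BrM 1, 6.44 and 6.22 in EO771 BrM, 7.53 to 8.72 in PyMT BrM 2 to 4 and 10.89 to 12.46 in the controls. Of 16 macrophage genes 9 were higher, led by Trem2 (4.94) and Gpnmb (4.87), and the mean of the 16 was 10.66 to 11.07 in BrM and 8.06 to 10.02 in the controls, and did not set PyMT BrM 1 apart. Of 6 monocyte genes 3 were higher, Fn1 (3.36) and Ccr2 (1.83) among them, and the mean of the 6 was 10.29 and 10.40 in EO771 BrM, 9.03 to 9.88 in PyMT BrM and 8.27 to 9.54 in the controls. The mean of the 8 T and NK cell genes was 4.05 in PyMT BrM 1, 4.08 and 4.32 in EO771 BrM and 4.82 to 5.89 in PyMT BrM 2 to 4. The mean of the 9 dendritic cell genes was 4.48 in PyMT BrM 1, 4.62 and 4.77 in EO771 BrM and 4.87 to 5.18 in PyMT BrM 2 to 4. Thus the means of neutrophil, of T and NK cell and of dendritic cell genes set PyMT BrM 1 with EO771 BrM. The dendritic cell means were barely apart, at 4.77 and 4.87, and the lowest T and NK cell means lay near the array median. The means of macrophage and monocyte genes did not show this split. Nor did those of microglia genes (8.22 in PyMT BrM 1, 8.08 to 8.14 in PyMT BrM 2 to 4, 6.88 and 7.21 in EO771 BrM). Erythroid genes did not either, at 5.81 in PyMT BrM 1 and 4.89 and 4.76 in EO771 BrM. Of 9 microglia genes 3 were higher in BrM, Fcrls (8.77), Olfml3 (6.34) and Tmem119 (4.96), while P2ry12, the defining receptor of resident microglia, differed by 0.40 (adjusted p = 0.359 by limma). Of 11 epithelial genes 2 were higher, Krt8 (3.10) and Cdh1 (1.46), and the mean of that list was 4.13 to 5.33 in BrM and 3.72 to 4.24 in the controls. A second, dimmer Krt8 probe with a mean of 3.47 differed by 0.03. Among the remaining lists, 3 of 8 T and NK cell genes were lower, Nkg7 (-2.88) and Cd3d (-2.59) the most, as were 3 of 5 B cell genes, with Blk (-5.44) and Vpreb3 (-4.08). Kit (-2.86) was the 1 of 5 mast cell and basophil genes that was lower, 4 of 5 erythroid genes were lower, with Slc4a1 (-6.40) and Hba-a1 (-4.84), and 0 of 9 dendritic cell genes were called. Of 11 brain genes Aldoc (2.18) was higher and Mbp (-1.07) lower, and of 12 endothelial and fibroblast genes 3 were higher, Sparc (3.46) and Col4a1 (2.82) the most. The part of these cells in the chemokine signals was not tested.

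**Figure D3:**
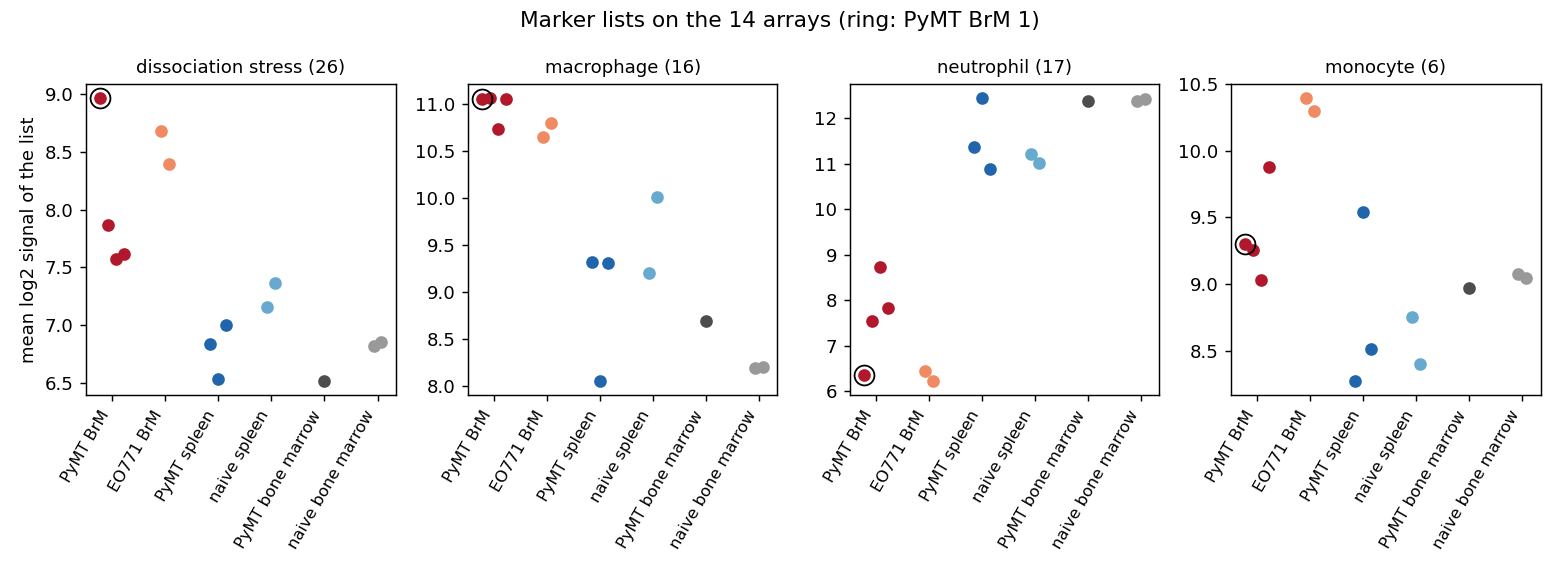
Mean log2 signal (vertical axes, which do not start at 0) of the measured genes of 4 lists on the 14 arrays in 6 conditions (horizontal axes), with the number of genes in brackets and a ring around PyMT BrM 1. The ringed array and the EO771 BrM arrays have the highest dissociation stress means, 8.39 to 8.97, and the lowest neutrophil means, 6.22 to 6.44.

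Of 7 measured receptors and decoys 3 were lower and 1 was higher in BrM, where 4.13% of all named genes were called lower and 4.89% higher, and their median difference was -1.02. Cxcr2, the receptor of CXCL1 and CXCL2 and also a gene of the neutrophil list, differed by -3.91 (SE 0.48) and Cxcr1 by -3.43 (SE 0.30). Cxcr2 read 4.46 to 7.13 in BrM and 8.05 to 11.07 in the controls, so its groups did not overlap, in the direction opposite to that of Cxcl1 and Cxcl2. How many of all probes had every BrM array below every control array was not counted. A second, dimmer Cxcr2 probe with a mean of 3.93 differed by -0.58 (adjusted p = 0.0361 by limma) and did not pass. Ackr1, a decoy receptor of red cells and endothelium, differed by -2.03 (SE 0.42, adjusted p = 0.00346 by limma). Ccrl2, a nonsignaling receptor that presents chemerin, was higher by 3.01 (SE 0.38, adjusted p = 6.32e-05 by limma), with 8.60 to 11.15 in BrM and 6.09 to 7.35 in the controls, and PyMT BrM 1 was its highest array. Ccr1, the receptor of CCL3, differed by -1.02 (SE 0.36, adjusted p = 0.0809), Cxcr6, the receptor of CXCL16, by 0.05 (SE 0.21, 0.922) and the decoy Ackr2 by -0.997 (SE 0.45, 0.198) by limma. Ccr1 and Cxcr6 were dim, with means of 2.64 and 3.78, below the median of the arrays.

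Of the proteases that release CXCL16 from the membrane, Adam17 was 2.15-fold higher (SE 0.17 on the log2 scale, adjusted p = 4.14e-04 by limma), with 9.34 to 9.97 in BrM and 8.18 to 8.92 in the controls. A second, dimmer Adam17 probe with a mean of 7.26 differed by 0.82 (adjusted p = 0.0393 by limma) and did not pass. Adam10 differed by 0.31 (SE 0.36, adjusted p = 0.699 by limma) on a probe with a mean of 3.95, below the median of the arrays.

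In the pooled comparison 4.89% of all named genes were called higher and 4.13% lower by limma. Of 21 measured genes of toll-like receptor and NF-kappaB signaling 2 were higher and 0 were lower, with a median difference of -0.03. They were Cd14, the co-receptor for bacterial lipopolysaccharide (3.06, SE 0.47, adjusted p = 3.08e-04), and Tlr2, a receptor for lipoproteins (1.72, SE 0.28, adjusted p = 4.62e-04 by limma). The feedback inhibitors that NF-kappaB itself induces did not pass: Nfkbia differed by -0.04 (SE 0.23, adjusted p = 0.954), Tnfaip3 by 1.40 (SE 0.36, 0.0168) and Nfkbiz, an inducible coactivator, by 0.86 (SE 0.38, 0.186) by limma. Nfkbiz read 10.99 in PyMT BrM 1 and 11.12 and 11.20 in EO771 BrM, but 8.89 to 9.15 in PyMT BrM 2 to 4 and 8.62 to 9.65 in the controls. Tnfaip3 had the same split, at 8.62 to 9.27 on those 3 BrM arrays, 7.12 to 7.41 on the other 3 and 5.90 to 7.57 in the controls.

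The pooled comparison called 4.89% of all named genes higher and 4.13% lower by limma. Of 14 measured inflammatory cytokines and related genes it called 2 higher and 0 lower, with a median difference of 1.16. They were Il1a (2.82, SE 0.46) and Osm (1.96, SE 0.47), which encode interleukin 1 alpha and oncostatin M. Tnf differed by 1.43 (SE 0.36, adjusted p = 0.0135 by limma), with 6.86 to 9.73 in BrM and 6.34 to 7.69 in the controls. Il1b was bright everywhere, at 11.84 to 13.33 in BrM and 11.78 to 12.75 in the controls, with a difference of 0.20 (SE 0.25, adjusted p = 0.717 by limma). Il1a had its highest signal, 9.49, in PyMT BrM 1 but read 6.10 and 5.93 in EO771 BrM, below PyMT BrM 2 to 4 (6.89 to 8.13), so it did not share the order of Ccl3, Ccl4, Cxcl1 and Cxcl2. In the EO771 comparison alone, 3 of the 14 were higher, Il10 (3.36), Il1rn (2.51) and Il6 (1.46), where 2.59% of all named genes were.

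Of 8 genes that act on the decay of cytokine transcripts 1 was higher and 0 were lower in the pooled comparison by limma. Their median difference was 0.35, and 4.89% of all named genes were called higher and 4.13% lower. Zfp36, which encodes the protein that marks such mRNAs for degradation, differed by 1.29 (SE 0.25, adjusted p = 0.00213 by limma), with 12.41 to 13.71 in BrM and 11.44 to 12.34 in the controls. It too was highest in EO771 BrM and PyMT BrM 1.

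Of 30 other chemokine ligands 10 were higher and 0 were lower in BrM by limma, where 4.89% of all named genes were called higher. Their median difference was 0.81. The largest rises were those of Ccl7 (7.74, SE 0.50) and Ccl12 (7.32, SE 0.28), which draw monocytes through CCR2, above any of the 5 genes. Cxcl3, another CXCR2 ligand, differed by 0.11 (SE 0.38, adjusted p = 0.914 by limma) on a probe with a mean of 2.86, below the median of the arrays. Ppbp, a platelet-borne CXCR2 ligand, differed by -1.37 (SE 1.05, adjusted p = 0.507 by limma). Of the CXCR2 ligands named here, then, Cxcl1 and Cxcl2 passed the test and Cxcl3 and Ppbp did not. Values of other such ligands in the list are not given. Cxcl3 and Ppbp were named after their values were seen.

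**Figure D4:**
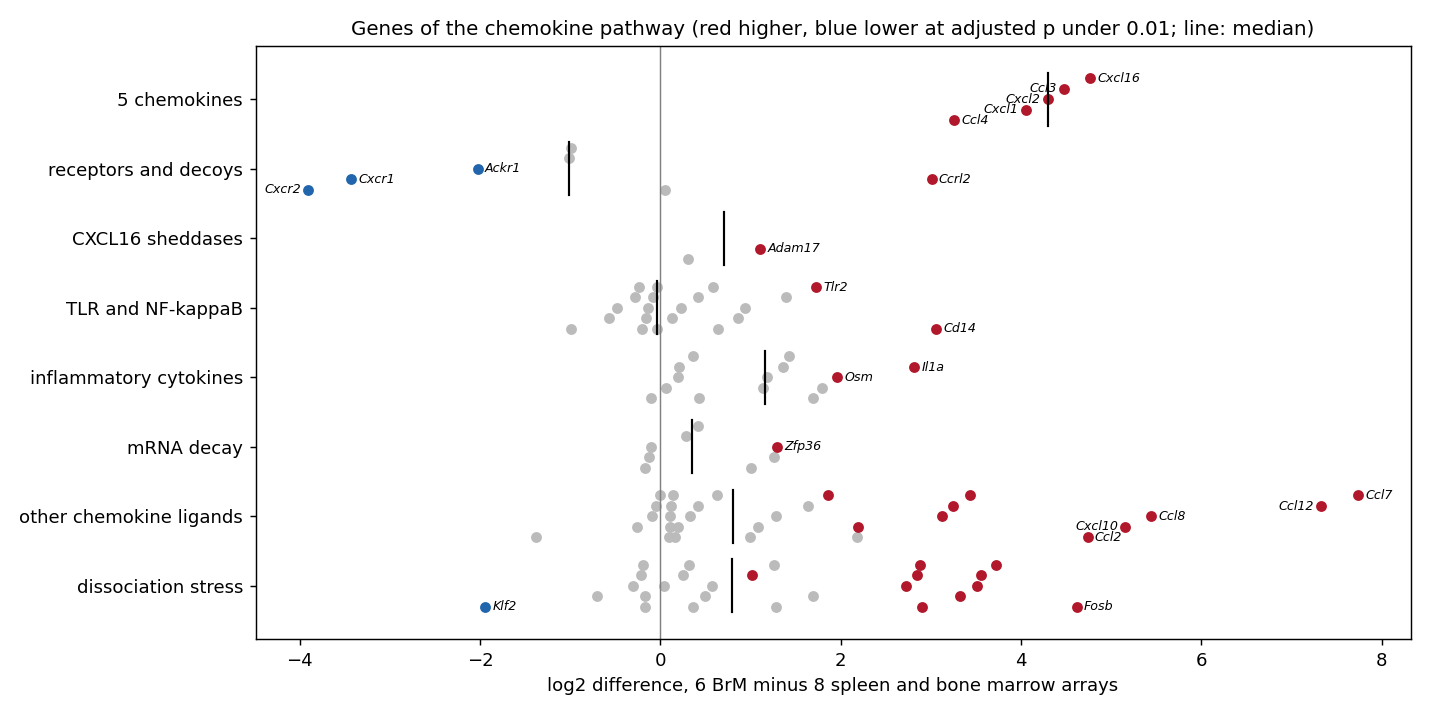
Log2 difference of 6 BrM minus 8 spleen and bone marrow arrays (horizontal axis) for the 5 chemokines and 7 lists of related genes (rows), with a point for each gene, red and blue for genes called higher and lower, grey for the rest and a black line at each median. The 5 chemokines lie at 3.25 to 4.77, while list medians lie between -1.02 and 1.16.

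Profiles across the 14 arrays were compared by the root mean square difference of centred log2 signals, where a smaller value is closer. Among the 5 genes, Ccl3 and Cxcl2 were closest over all arrays (0.57), and within the 6 BrM arrays Ccl3 and Ccl4 were closest (0.15), whereas Cxcl2 and Cxcl16 were farthest apart there (2.07). The closest other genes to Ccl3 were Slc6a8 (0.63), a creatine transporter, Flrt3 (0.64) and Ccl2 (0.65). For Ccl4 they were Ier3 (0.51), Rab7b (0.60) and Slc27a1 (0.63), and for Cxcl2 Slc6a8 (0.66), Flrt3 (0.68) and Cav1 (0.69). Cxcl1 had no equally close partner, with Ccl2 at 0.88, Thbs1 at 0.93 and Fosb at 0.96. Ier3 and Fosb belong to the dissociation list. A second, dimmer Flrt3 probe with a mean of 3.77 differed by -0.23 between BrM and the controls, against 4.49 on the brighter probe.

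For Cxcl16 the closest genes were Spsb1 (0.44), a substrate adaptor of ubiquitin ligases, Cttnbp2nl (0.67) and Zmynd15 (0.67). A second, dimmer Spsb1 probe with a mean of 3.27 differed by -0.03 between BrM and the controls (adjusted p = 0.971 by limma). The second probes of Cttnbp2nl and Zmynd15 differed by 4.31 and 3.40. Zmynd15 read 7.59 to 8.43 in BrM and 3.70 to 5.78 in the controls, with a difference of 3.84 (SE 0.30, adjusted p = 4.03e-07 by limma). Zmynd15 and Cxcl16 are neighbors on chromosome 11 with overlapping annotated spans, no other protein-coding gene lies between them, and signals of overlapping genes may not be independent. Spsb1 and Zmynd15 were lowest among the BrM arrays on EO771 BrM 1, as was Cxcl16, whereas Cttnbp2nl was highest in EO771 BrM (10.15 and 10.12, against 9.35 to 9.95 in PyMT BrM).

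In naïve spleen against naïve bone marrow, 0 of the 5 genes passed, where 0% of all probes were called in either direction by limma and 2 of the 5 had an unadjusted p under 0.05, as had 15% of all probes. Among all controls, 0 of the 5 genes differed between spleen and bone marrow, where 0.00883% of all probes were called higher and 0% lower by limma, and 1 of the 5 had an unadjusted p under 0.05, as had 13.3% of all probes. That gene was Cxcl16, which read higher in spleen by 1.21 (SE 0.48, 95% interval 0.18 to 2.23, adjusted p = 0.286 by limma), with PyMT spleen 2, at 6.07, below all other spleens and bone marrow arrays. Without that array the difference was 1.66 and passed, but the array was named for its low Cxcl16 signal, so this call is no separate evidence. Ccl3 ran the other way, lower in spleen by -0.90 (SE 0.63, adjusted p = 0.596 by limma), and in naïve mice alone by -1.81 (SE 0.62, 95% interval -3.16 to -0.47, adjusted p = 0.188 by limma). In spleens of PyMT mice against naïve spleens, 0 of the 5 genes passed (0.0287% of all probes were called higher and 0.0861% lower by limma), and 0 of the 5 had an unadjusted p under 0.05, as had 19.4% of all probes. The differences were 0.61 for Ccl3, 0.35 for Ccl4, 1.89 for Cxcl1, 0.45 for Cxcl2 and -0.34 for Cxcl16, with an interval of -0.23 to 4.01 for Cxcl1. The other Cxcl2 probe gave 1.59 (95% interval -0.19 to 3.38, adjusted p = 0.309 by limma).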

How the data were processed

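RNA of GFP+CD11b+ cells was hybridized to 14 Illumina MouseWG-6 v2 BeadChip arrays. The deposited values were read as log2 signals, from their range since the base is not given in the sources used here, and every fold depends on it. They had been quantile normalized by the authors, as the values show, and once sorted, the arrays held the same values to within 0.00192. GenomeStudio 2011.1 and limma are listed in the submitters' processing notes. The background correction is not given in the sources used here, each array had 80 values below 0, and no detection filter was applied, so that the number of arrays and the signal over background limit precision. One symbol was assigned to 34885 of the 45281 probes, several to 18 and none to 10378.

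Fits used R 4.3.3 and limma 3.58.1 (lmFit, eBayes without trend), tested on simulated data. A two-sided p was adjusted by the Benjamini-Hochberg method across the whole array, and a gene was called below 0.01. A pooled fit, a fit of 4 groups (both models and their controls), a fit of 3 tissues and a fit of 6 conditions gave the comparisons. The 5 genes and the gene lists (234 of 253 listed genes had a probe) were chosen with earlier results of these data known. Named list genes were the 2 largest called rises and falls of a list in the pooled comparison, all receptors and sheddases, Tnf, Il1b, Nfkbia, Tnfaip3, Nfkbiz and Zfp36, and the 3 closest profiles to each of the 5 genes. Tmem119, P2ry12, Cxcl3, Ppbp and the cytokines of the EO771 comparison were named after their values were seen. Promoters came from RefSeq (GRCm38.p6).

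Alternatives were centring on reference genes, a filter on dim probes, a trend, robust variances, the methods' t-test, equal weight of conditions, fits of 1 model alone, averaged probes, averaged naïve bone marrow arrays, replicate blocks and leaving out each array. Added after the data were seen were PyMT BrM against PyMT spleen and the omission of naïve bone marrow. Titles carry a code that BrM and spleen arrays share and a replicate number, and these disagree. Deviations of arrays with the same code correlated at -0.043 to -0.002 and those with the same number at -0.003 to 0.049, so the pairing rests on the codes alone. One item of the gene lists is not reported here.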

Additional observations from a re-analysis of the deposited data

Results flagged for a closer look

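Of 30 groups of 4 to 8 arrays checked, 4 had an array far from the rest. Chance alone gives about 1 in 20 in separate groups of a single condition. These groups share arrays and some mix conditions, so their number cannot be set against that rate. For Ccl3 in the 5 spleens, PyMT spleen 1 was apart by a gap of 0.757 of the whole range. For Ccl4 in the 4 PyMT spleen and bone marrow arrays, the same array was apart by 0.947. For Cxcl1 in the 8 spleen and bone marrow arrays, naïve spleen 1, at a log2 signal of 0.57, was apart by 0.607. For Cxcl2 in the 4 PyMT BrM arrays, PyMT BrM 1 was apart by 0.840, beside its high mean of dissociation genes (8.97) and its low mean of neutrophil genes (6.36), whose part was not tested.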

How the results depend on the processing

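In the pooled comparison the 5 genes were called under every alternative run and with each of the 14 arrays left out, and against spleen they were called with each array left out, but 4 were called in PyMT BrM against PyMT spleen alone (without Cxcl1, at 2.83). The PyMT comparison called 4 genes with each array left out, but 1 with the shared code as a fixed replicate block, which leaves 6 arrays. No other replicate block, by code or by number as a random block, changed the number of genes called in any comparison. Leaving out an array gave 2 to 5 genes called in the EO771 comparison (2 without EO771 BrM 1 and 3 without EO771 BrM 2), 2 to 5 against bone marrow (2 without PyMT bone marrow 1), and 0 to 1 for spleen against bone marrow and for naïve spleen against naïve bone marrow (Cxcl16, without PyMT spleen 2). Without the naïve bone marrow arrays, 1 gene was called against bone marrow. Against bone marrow, Cxcl1 was called with a filter on dim probes (adjusted p = 0.00553 by limma) and with a trend (0.00602), and Cxcl2 was not with the naïve bone marrow arrays averaged (0.0168).

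Reversed signs were those of differences that had not been called. Ccl4 in spleen against bone marrow was -0.06, but 0.10 with reference centring, 0.0396 with the code as a random replicate block, 0.0745 with the naïve bone marrow arrays averaged, and -0.40 to 0.13 with an array left out. With an array left out, Cxcl1 in spleen against bone marrow was -0.888 to 0.0762, and PyMT spleen against naïve spleen was -0.27 to 0.68 for Ccl4, -0.89 to 0.50 for Cxcl16 and -0.16 to 1.06 for Cxcl2. Reference centring moved the median of all probes from -0.01 to -0.17 in the pooled comparison and the calls from 1719 higher and 1413 lower to 1043 and 1927, and all 5 genes stayed higher. Signals below the array median limit Cxcl1 in the controls, and Ccr1, Cxcr6, Cxcl3 and Adam10.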
